A study of Mus musculus with 18 samples.

Results

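*Nanog* is 1 of the 24296 genes that could be counted in RNA sequencing of mouse embryonic stem cells (mESCs), and it is described here across days 0 to 3 of differentiation and 3 genotypes. It was chosen by its gene symbol, after its levels over days 0 to 3 had been seen. Those levels are therefore given as a description, without a test. The cells are E14 mESCs of the genotype Rex1GFPd2-Cas9, which carry a GFP reporter of *Rex1* (listed in the files as *Zfp42*) and Cas9, in all 18 libraries. In the time course, 12 libraries came from these cells at days 0, 1, 2 and 3 of differentiation, with 3 libraries per day. The other 6 came from undifferentiated GFP+ cells, which are cells sorted for reporter expression, with 2 libraries each of wild-type, *Nprl2* KO (*Nprl2*-/-) and *Tsc2* KO (*Tsc2*-/-) cells. The study's methods describe maintenance with serum and LIF on feeder cells or, where indicated, with LIF and inhibitors of MEK and Gsk3 on gelatin. Differentiation was without LIF or inhibitors. Their section on RNA sequencing names no medium. KO lines were made by deleting an exon with Cas9, and the labels do not say whether the 2 libraries of a genotype came from separate clones or cultures. The p values then measure the spread between these libraries only, which may be technical.

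Nanog is a homeodomain transcription factor of the pluripotent epiblast and of mESCs. It binds enhancers and promoters together with Pou5f1 and Sox2, sustains self-renewal, and its level is known to vary from cell to cell. In the embryo *Nanog* is expressed in the early epiblast, declines around implantation and is expressed again in the posterior epiblast near the primitive streak. The upstream region of the gene is shown because the factors known to bind it are followed below. *Nanog* lies on the plus strand of chromosome 6, at chr6:122707489-122714633 in GRCm38.p6, and the 250 bases before its first start site in RefSeq, chr6:122707239-122707488, are printed 5′ to 3′ with matches to the searched motifs in capitals.

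Nanog upstream region: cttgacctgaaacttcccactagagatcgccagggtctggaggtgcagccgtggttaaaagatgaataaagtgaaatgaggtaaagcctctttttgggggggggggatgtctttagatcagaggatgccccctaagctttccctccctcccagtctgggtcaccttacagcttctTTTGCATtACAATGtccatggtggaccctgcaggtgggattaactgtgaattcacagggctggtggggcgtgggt

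The capitals mark TTTGCAT, part of the octamer that Pou5f1 binds, from base -75 to -69 relative to the start site, and, from -67 to -62 on the minus strand, CATTGT, a Sox motif. Both strands were searched. Among the first 250 bases of 27025 RefSeq promoters, TTTGCAT occurred in 4.06% and CATTGT in 10.99%. The 2 motifs in this order and orientation, on either strand and within 2 bases of each other, occurred in 1 of the 27025, that of *Nanog*, a combination that was searched for after the match had been seen. AAGGTCA (Esrrb and Nr5a2), GGGTGTG (Klf), TTCNNNGAA (Stat), CTTTGA (Tcf and Lef) and CAGACA (Smad) had no match in this window and occurred in 4.05%, 6.85%, 7.18%, 14.1% and 17.1% of promoters. A match is a run of letters, not a measured binding site. Other spellings of these motifs were not searched, so a missing match does not mean that a factor has no site here.

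The total of estimated counts lay between 12503005 and 15305054 in the time course and between 8610357 and 13780861 in GFP+ cells. *Nanog* itself had between 305 and 13979 counts, far above the 3 counts that a count of 0 allows, equal to 0.199 to 0.360 CPM (counts scaled to the normalized library total), for counting error only. Both RefSeq pseudogenes of *Nanog* (*Nanog-ps1* on chromosome X and *Nanog-ps2* on chromosome 12) have no transcript among those counted, so reads from them were not counted as their own. The mESC markers *Pou5f1*, *Sox2*, *Zfp42*, *Utf1*, *Dppa5a*, *Tdgf1*, *Dppa4* and *Lin28a* were detected in every group, with a summed level between 3831 and 4837 CPM at day 0, at day 1 and in GFP+ cells, and between 1906 and 2226 CPM at day 3. Markers of the other cells that the cultures could hold moved too. The summed level of 10 feeder fibroblast markers was between 986.9 and 1126 CPM at day 0 and between 281 and 435.6 CPM at days 2 and 3. Of these, *Lum* and *Fap* were at or under 3 counts in all libraries, *Dcn* at day 0 and *Postn* at days 2 and 3. That of 8 neural precursor markers was between 21.4 and 29.1 CPM at days 0 and 1 and between 292.1 and 359.3 CPM at day 3. Primitive endoderm markers stayed between 10.4 and 26.1 CPM over the days. Trophectoderm markers reached between 297.9 and 523.1 CPM at day 3, against 90.0 to 101.5 CPM at day 0. *Elf5* was at or under 3 counts in all libraries and *Cdx2* at days 1 and 3, so the rise rests on other markers. *Eomes*, another of them, was called lower at day 3 than at day 0 by the edgeR test described below. That call was lost without library 2 of day 0 or library 1 or 2 of day 3. The part of these cells in the levels of *Nanog* was not tested, and in bulk RNA fewer *Nanog*-expressing cells and less *Nanog* RNA per cell cannot be told apart.

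*Nanog* was nearly lost within the first day of differentiation and was partly back by the third. At day 0 its level per transcript length was 769, 847.9 and 729.8 TPM (a level scaled for transcript length and library total) in the 3 libraries. At day 1 it was 19.98, 20.54 and 23.41 TPM. These libraries did not overlap, and the mean at day 1, 21.3 ± 1.84 TPM (SD, n = 3), was 2.72% of that at day 0, 782.2 ± 60.2 TPM (SD, n = 3). At day 2 the libraries held 34.8, 28.9 and 45.4 TPM, and at day 3 they held 97.4, 113.7 and 170.2 TPM. The mean at day 2 was 36.4 ± 8.34 TPM (SD, n = 3), or 4.65% of day 0, and at day 3 it was 127.1 ± 38.2 TPM (SD, n = 3), or 16.2%. The order of the days was thus day 0, day 3, day 2 and day 1, and no neighbouring days in that order overlapped. The closest were days 2 and 1, where the lowest library of day 2 and the highest of day 1 were 5.52 TPM apart and the means differed by 15.1 TPM, against 10.2 TPM for the sum of their SDs. The spread between libraries was wider later on, with a coefficient of variation of 7.69% at day 0, 8.64% at day 1, 22.9% at day 2 and 30.0% at day 3.

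**Figure D1:**
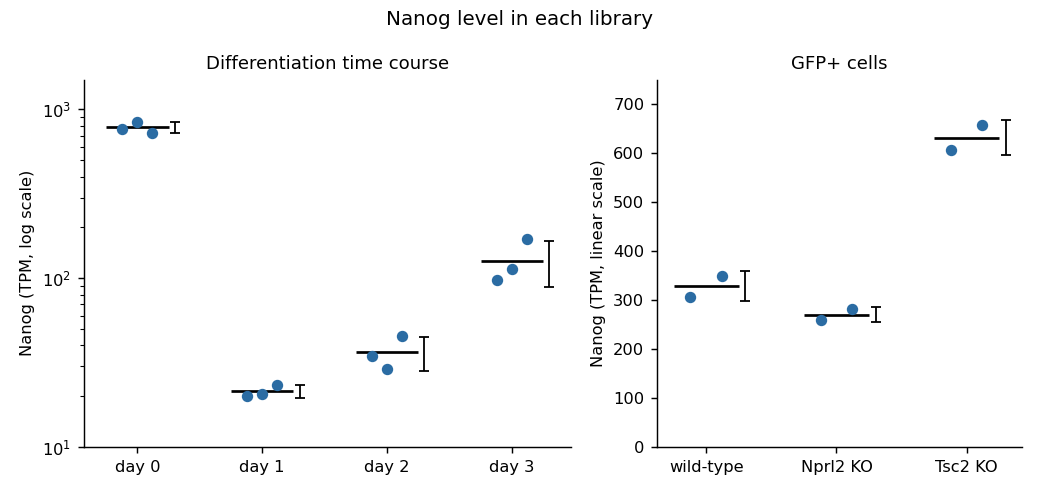
Level of *Nanog* in TPM in each library (points), by day of differentiation on a log axis (left) and by genotype of GFP+ cells on a linear axis (right). Horizontal lines are group means and bars are ± SD (n = 3 per day, n = 2 per genotype); the day 1 libraries lie between 19.98 and 23.41 TPM, below all those of days 2 and 3, and both *Tsc2* KO libraries lie at 606.4 TPM or above.

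On the log2 scale of edgeR, *Nanog* was lower by 5.15 at day 1 than at day 0 (35.6-fold), higher by 0.68 at day 2 than at day 1 (1.60-fold), higher by 1.75 at day 3 than at day 2 (3.38-fold) and still lower by 2.72 at day 3 than at day 0 (6.59-fold). Steps that follow each other share the libraries of the day between them, and single libraries weighed on the later ones. Without library 3 of day 2 the step from day 1 to day 2 was 0.49, and without library 3 of day 3 the step from day 2 to day 3 was 1.51. In rank, *Nanog* went from between 147 and 174 among all genes at day 0, counted from the highest TPM, to between 5499 and 5903 at day 1 and back to between 905 and 1661 at day 3. Relative to *Pou5f1*, its partner in the core network, the pattern was the same, since *Nanog* RNA per *Pou5f1* RNA (a ratio of TPM) was 0.425 ± 0.0499 (SD, n = 3) at day 0, 0.0116 ± 0.000979 at day 1, 0.0256 ± 0.00731 at day 2 and 0.103 ± 0.0307 at day 3.

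The files list 4 transcripts of *Nanog*, which match 3 gene models that differ at the 5′ end. In GENCODE M21, NM_028016.3 and NM_001289828.1 correspond to a 4-exon model that starts at base 122707568 of chromosome 6 and has its start codon at 122707783. NM_001289831.1 corresponds to a 5-exon model that starts 79 bases further upstream, at 122707489, splices from base 122707516 to 122707812 and has its start codon at 122707858, with 25 codons fewer. NM_001289830.1 starts at 122707565 and uses that later start codon too. In the time course NM_001289831.1 held between 46.3% and 68.8% of *Nanog* TPM and NM_028016.3 between 23.6% and 48.7%. In GFP+ cells NM_028016.3 held between 84.5% and 92.6%, and NM_001289831.1 between 0% and 0.132%. Within the time course both main forms had the pattern of the whole gene. NM_001289831.1 was at 391.4 ± 52.5 TPM (SD, n = 3) at day 0, 13.4 ± 1.95 TPM at day 1, 18.6 ± 2.08 TPM at day 2 and 68.4 ± 20.9 TPM at day 3, and NM_028016.3 was at 324.6 ± 11.8, 6.79 ± 1.63, 12.6 ± 8.31 and 48.2 ± 9.90 TPM. In both, day 1 was the lowest and day 3 lay between days 2 and 0. Estimation differed between the sets. In the time-course tables the length of each transcript minus its effective length is 179 bases throughout, and in the GFP+ tables it lies between 169.6 and 228 bases. The kind of cells, the library preparation and this setting cannot be told apart in the difference of the split.

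**Figure D2:**
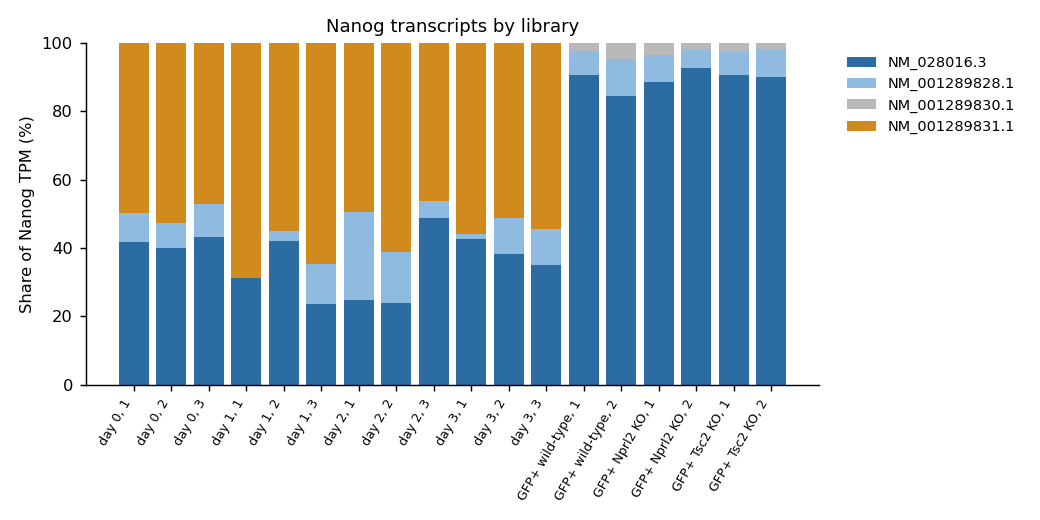
Share of *Nanog* TPM (percent) estimated for each of its 4 listed RefSeq transcripts in each library, with replicate numbers after the group names. NM_001289831.1 takes between 46.3% and 68.8% in the 12 time-course libraries and at most 0.132% in the 6 GFP+ libraries.

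The genes whose pattern over the days was most like that of *Nanog* were found among 14382 genes that passed the filter on low counts. Likeness was measured as the root mean square difference in log2 change from day 0 over days 1, 2 and 3, on the scale of mean log2 CPM with a prior count of 2. These genes were chosen by their values and are given as a description. On that scale *Nanog* was at -5.14, -4.49 and -2.75. The nearest was *Socs3*, a target and feedback inhibitor of LIF and Stat3 signaling, at -4.84, -3.95 and -2.97 (difference 0.377). *Aqp3*, a water and glycerol channel, followed at 0.382, *Smarcd3*, a subunit of BAF chromatin remodelers, at 0.458, and *Kit*, a receptor tyrosine kinase, at 0.659. The remaining 6 of the 10 nearest were *Tmem117*, *Bcl3*, *Trim16*, *Pga5*, *Msc* and *Serpinb1a*, at differences between 0.761 and 0.900. When likeness was instead the Pearson correlation over the 12 libraries, the 10 nearest shared 0 genes with these, since that measure ignores the size of the change. They were led by *Frmd4a* (r = 0.99 over 12 libraries that share their day structure), which was lower than day 0 by 2.26, 2.02 and 1.32. The lower level of *Socs3* was in every library, with 79.7 to 116.1 CPM at day 0, 2.74 to 3.35 at day 1, 5.04 to 7.63 at day 2 and 10.1 to 15.9 at day 3.

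**Figure D3:**
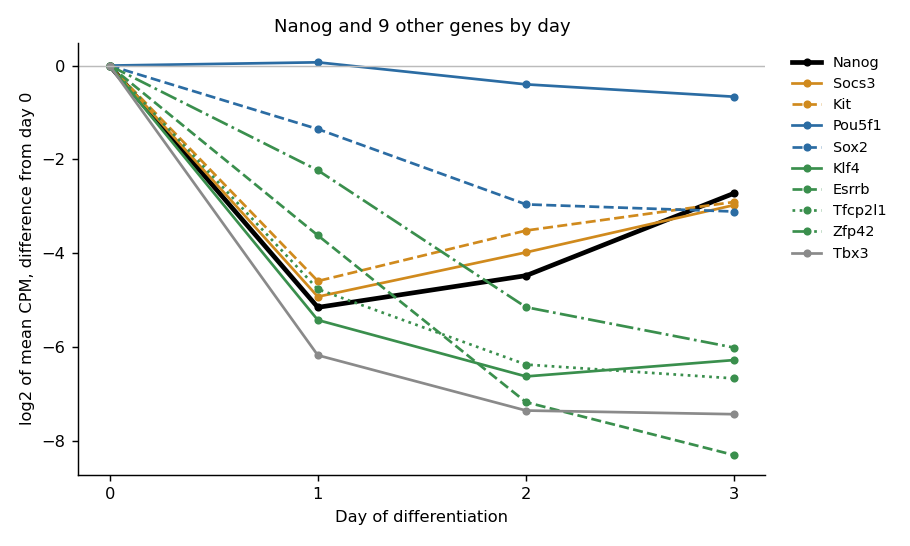
Difference in log2 of mean CPM from day 0 (vertical axis) by day of differentiation (horizontal axis) for *Nanog* (black) and 9 other genes. *Nanog*, *Socs3* and *Kit* turn upward after day 1, while *Esrrb*, *Zfp42*, *Tfcp2l1* and *Tbx3* go on falling or stay low and *Pou5f1* stays within 1 log2 unit of day 0.

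A fall followed by a rise was not particular to *Nanog*. By edgeR's quasi-likelihood test (a gene is called at a Benjamini-Hochberg adjusted p under 0.05), 30.8% of the 14382 genes were called lower and 30.1% called higher at day 1 than at day 0. Of the 4424 called lower, 1093 (24.7%) were called higher at day 3 than at day 2, against 15.9% of all genes called higher and 15.6% called lower in that comparison. Among the 204 genes with a called fall of at least 3 log2 units at day 1, which include *Nanog*, the gene chosen for this pattern, 39 (19.1%) were called higher at day 3 than at day 2. In 7 of these the later rise was above that of *Nanog*, and all 7 had a mean level of at most 3.27 on the log2 CPM scale, where *Nanog* had 8.04.

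With all libraries, none of the activators known to bind the *Nanog* locus was called higher while *Nanog* returned. Of 14 listed, 10 were called lower at day 1 than at day 0, 13 were called lower at day 2 than at day 1, and at day 3 against day 2 4 were called lower (*Pou5f1*, *Esrrb*, *Klf2* and *Nr5a2*) and 0 called higher, with 10 not called (2 of these 10, *Klf4* and *Klf5*, at log2 fold changes of 0.37 and 0.21). At an unadjusted p under 0.05 the count called higher at that step was also 0, and DESeq2 called 0 higher and 3 lower. Without library 3 of day 2, 1 activator (*Klf5*) was called higher at that step, and without library 1 or 2 of day 2 or library 1 of day 3 only 2 were called lower. *Klf2* and *Nr5a2* lost their calls without single libraries (*Klf2* without library 2 or 3 of day 2 or library 3 of day 3, adjusted p between 0.0910 and 0.130, and *Nr5a2* without library 1 or 2 of day 2 or any library of day 3, adjusted p between 0.0522 and 0.160). Of all genes, 30.1% were called higher and 30.8% lower at day 1. From day 1 to day 2 these shares were 32.5% and 29.6%, and from day 2 to day 3 they were 15.9% and 15.6%. With so low a share at the last step, 0 of 14 called higher is not by itself a trait of this list. The list's median change on the log2 scale was -2.63 at day 1, -1.46 from day 1 to day 2 and -0.23 from day 2 to day 3, or -0.19 with *Prdm14*, at or under 3 counts at both days, left out, where the medians of all genes were 0.00, 0.02 and -0.01. *Tbx3* (log2 fold change -6.18), *Prdm14* (-5.87), *Klf4* (-5.42), *Esrrb* (-3.62), *Nr5a2* (-3.33) and *Klf5* (-2.90) had the largest falls at day 1. *Esrrb*, an orphan nuclear receptor that binds the *Nanog* promoter region, went from 921.4 ± 53.1 CPM (SD, n = 3) at day 0 to 75.1 ± 7.84 at day 1, 6.40 ± 1.38 at day 2 and 2.93 ± 0.456 at day 3. *Pou5f1* was at 1197 ± 60.1 CPM (SD, n = 3) at day 0 and 1256 ± 25.7 at day 1 (log2 fold change 0.07, edgeR adjusted p = 0.426), and fell to 907.1 ± 62.5 at day 2 and 755.9 ± 92.4 at day 3. The step of *Pou5f1* from day 2 to day 3 (log2 fold change -0.26, edgeR adjusted p = 0.0108) was not called without library 1 of day 2 (adjusted p = 0.0588) or of day 3 (adjusted p = 0.0806). *Sox2* fell by 1.35 and then by 1.60 on the log2 scale and had -0.15 from day 2 to day 3 (edgeR adjusted p = 0.143). At day 3 all 14 activators were called lower than at day 0, where 35.9% of all genes were called lower and 35.0% called higher. Of these calls that of *Zfp143* was lost with limma (adjusted p = 0.107) and without library 2 or 3 of day 0 or library 3 of day 3 (adjusted p between 0.0593 and 0.0647).

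Among 4 repressors known to act on *Nanog*, *Nr6a1* (the nuclear receptor Gcnf) rose at each step, by log2 fold changes of 0.86, 0.76 and 0.43 (edgeR adjusted p at most 3.45e-05). *Tcf7l1*, a Wnt pathway repressor of the pluripotency network, fell at day 1 by 0.38 (edgeR adjusted p = 2.85e-04) and rose from day 2 to day 3 by 0.30 (adjusted p = 0.00674). *Zfp281* rose at day 1 by 0.72 and fell by 0.91 from day 1 to day 2. *Trp53* fell at day 2 by 0.77, and its rise to day 3, 0.18 (edgeR adjusted p = 0.0492), was not called without library 3 of day 3 (adjusted p = 0.235) or without any of 7 other libraries, one at a time. Of 17 protein partners of Nanog, 5 were called higher and 7 lower at day 1, against 30.1% and 30.8% of all genes. From day 1 to day 2, 1 was called higher and 14 lower, against 32.5% and 29.6%. From day 2 to day 3, 1 was called higher and 5 lower, against 15.9% and 15.6%. The 5 called lower at that last step became 3 without library 1 or 2 of day 2 and 2 without library 1 of day 3. The partner that rose in both later steps was *Mta1*, a NuRD complex subunit, with log2 fold changes of 0.62 and 0.26.

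Signaling genes upstream of *Nanog* moved in both directions. The shares of all genes called higher and lower were 30.1% and 30.8% at day 1. They were 32.5% and 29.6% from day 1 to day 2, and 15.9% and 15.6% from day 2 to day 3. Of 9 genes of the LIF-Stat3 pathway, 8 were called lower and 1 higher at day 1, and 5 lower and 2 higher from day 1 to day 2. From day 2 to day 3, 5 were called higher and 1 lower, where 3 were called higher without library 2 of day 2. The median of the list was -0.90 at day 1 and 0.23 from day 2 to day 3. The co-receptor *Il6st* fell by 1.66 at day 1 and rose by 0.42 from day 2 to day 3 (edgeR adjusted p = 0.00238), and the LIF receptor *Lifr* fell at each step, by 0.90, 2.26 and 0.52. The last step of *Lifr* (edgeR adjusted p = 0.00847) was not called without library 1 of day 2 (adjusted p = 0.0608) or library 2 of day 3 (adjusted p = 0.0520). *Socs3* rose by 0.94 from day 1 to day 2, a call that needed library 3 of day 2 (adjusted p = 0.0957 without it) and library 2 of day 1 (adjusted p = 0.0595 without it), and by 1.01 from day 2 to day 3 (adjusted p = 0.00738). Of 15 genes of the Nodal and activin pathway, which is known to sustain *Nanog* in the epiblast, 4 were called higher and 8 lower at day 1, 6 higher and 4 lower from day 1 to day 2, and 6 higher and 0 lower from day 2 to day 3, where 2 were lower at an unadjusted p under 0.05. The 6 called higher at the last step became 2 without library 1 and 3 without library 2 of day 2. The 0 called lower became 1 (*Skil*) without library 2 or 3 of day 0 and 2 (*Skil* and *Tdgf1*) without library 3 of day 2. The medians were -0.78, 0.27 and 0.20. The ligand *Nodal* had log2 fold changes of -0.82 and -1.04 in the first steps and 0.30 in the last (edgeR adjusted p = 0.175), and its co-receptor *Tdgf1* fell by 0.96 and 2.08. *Smad3*, an effector of the pathway, fell by 0.78 at day 1, rose by 1.30 to day 2 and by 0.45 to day 3. That last call was lost without library 1 or 2 of day 2 or library 1 of day 3 (adjusted p between 0.0722 and 0.0760).

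Listed genes that Nanog is known to activate and genes of the naive state stayed low while *Nanog* returned. All 6 listed genes that Nanog is known to activate (*Esrrb*, *Klf4*, *Zfp42*, *Tfcp2l1*, *Prdm14* and *Tcl1*) were called lower at day 1 and again from day 1 to day 2. At the last step 2 were called lower (*Esrrb* by 1.12 and *Zfp42* by 0.86) and 0 called higher. All 6 are also on the naive list, and *Esrrb*, *Klf4* and *Prdm14* are activators too, so these lists do not count separate genes. *Klf4*, at 319.6 ± 19.2 CPM (SD, n = 3) at day 0, was at 7.46 ± 0.657, 3.24 ± 0.709 and 4.13 ± 2.18 CPM at days 1, 2 and 3 (edgeR adjusted p = 0.408 for the last step). Of 14 naive pluripotency genes, 13 were called lower at day 1, 14 from day 1 to day 2, and 6 from day 2 to day 3. At every step 0 of them were called higher, by edgeR, by DESeq2 or at an unadjusted p under 0.05. Of all genes tested, 30.1% were called higher and 30.8% lower at day 1. The same shares were 32.5% and 29.6% from day 1 to day 2, and 15.9% and 15.6% from day 2 to day 3. Without library 3 of day 2, *Klf5* was called higher at the last step. The medians of the naive list were -3.11, -2.33 (-2.15 with genes at or under 3 counts at their bound) and -0.82 (-0.42 with such genes at their bound or left out). Of the genes that Nanog is known to repress, *Otx2* rose by 3.29 at day 1 and fell by 0.92 to day 2, and *Gata6* fell by 1.01 and 1.32. The first call of *Gata6* was lost without library 1 of day 0 or library 2 of day 1 (adjusted p = 0.0901 and 0.0755), and the second without library 1 of day 1 or library 2 or 3 of day 2 (adjusted p between 0.0574 and 0.0906). All 10 formative pluripotency genes, which mark the state after the naive one, were called higher at day 1, led by *Fgf5* with a log2 fold change of 7.18, and from day 2 to day 3 3 were called lower and 0 called higher. Without single libraries 1 was called higher at that step, *Zic2* without library 2 of day 0 or *Fgf15* without library 2 of day 2 or library 1 of day 3. Of 12 primitive streak and posterior epiblast genes, 10 were tested. From day 2 to day 3, 3 were called higher (*T*, *Fgf8* and *Nkx1-2*) and 0 called lower, against 15.9% and 15.6% of all genes. *Fgf8* was at 0.263 ± 0.193, 0.409 ± 0.240, 1.01 ± 0.424 and 4.63 ± 2.56 CPM (SD, n = 3) at days 0, 1, 2 and 3, low levels beside those of *Nanog*. For that step the call of *Nkx1-2* was lost without library 1 or 3 of day 2 (edgeR adjusted p = 0.0593 and 0.0513). That of *T*, whose groups overlapped, was lost without library 1 or 3 of day 2 or library 3 of day 3 (edgeR adjusted p between 0.0560 and 0.118). Thus 1 was left called higher without library 1 or 3 of day 2. At day 1 0 genes of this list were called higher and 3 lower, and from day 1 to day 2 2 higher and 0 lower. At day 3 against day 0, 5 were called higher and 4 lower, against 35.0% and 35.9% of all genes. Without library 3 of day 3, 1 was called higher and 5 lower at day 1, and 3 higher at day 3 against day 0.

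The gene next to *Nanog* had a pattern of the same shape. *Slc2a3*, a glucose transporter gene that starts 13176 bases after the end of *Nanog*, was at 1064 to 1141 CPM in the day 0 libraries, 90.4 to 111.3 at day 1, 217.8 to 280.7 at day 2 and 492.9 to 675.9 at day 3. It fell by 3.43 on the log2 scale at day 1 and rose by 1.33 to day 2 and by 1.25 to day 3 (edgeR adjusted p = 1.08e-09, 4.30e-06 and 4.45e-05). *Foxj2*, a forkhead factor and the next gene on that side, had log2 fold changes of -1.17, 0.74 and 0.71 (edgeR adjusted p = 5.59e-05, 0.00405 and 0.00656) at a level between 6.03 and 19.2 CPM. Of the 12 nearest protein-coding genes, 6 on each side, 8 were tested. At day 1 2 were called higher and 4 lower, against 30.1% and 30.8% of all genes. From day 2 to day 3 2 were called higher and 4 lower, against 15.9% and 15.6%. The 4 called lower at this last step became 2 without library 1 of day 2 or library 2 of day 3. On the other side, *Gdf3*, a TGF-beta family ligand, fell at each step, by 0.32, 0.93 and 0.90, and its first call was lost without library 3 of day 0 (adjusted p = 0.0558) or library 1 of day 1 (adjusted p = 0.0701). *Dppa3*, a naive marker, was at 1.15 ± 0.331 CPM (SD, n = 3) at day 0 and at or under 3 counts at day 3. The median log2 fold change of all 678 tested genes of chromosome 6 was 0.01 at day 1 and 0.01 from day 2 to day 3.

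**Figure D4:**
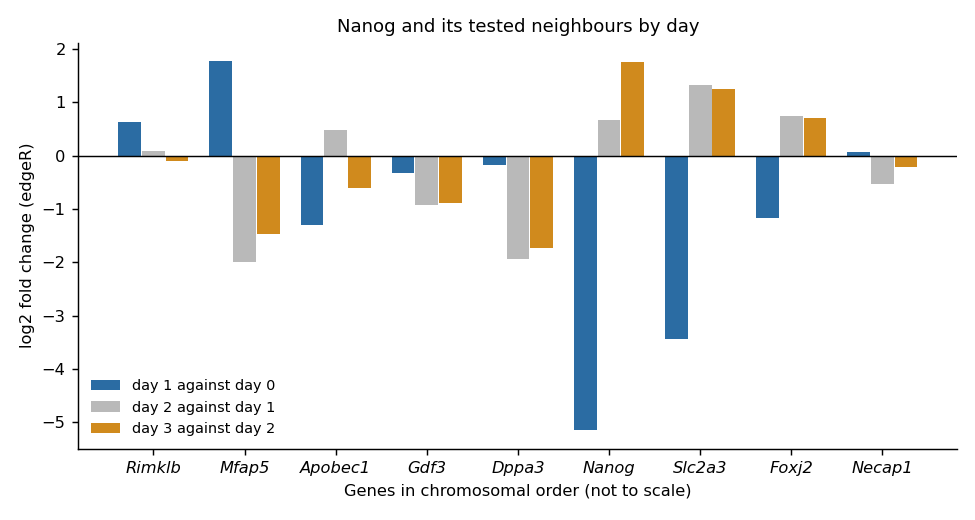
edgeR log2 fold changes of *Nanog* and its 8 tested neighbours, in chromosomal order, for day 1 against day 0, day 2 against day 1 and day 3 against day 2. *Slc2a3* and *Foxj2*, to the right of *Nanog*, have bars of the same signs as *Nanog* at all 3 steps; the last bar of *Dppa3* rests on at most 3 counts per library at day 3.

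In GFP+ cells, sorted for reporter expression, the genotypes were compared to ask how loss of these mTORC1 regulators changes naive cells. Nprl2 is part of Gator1 and Tsc2 of the Tsc complex, and both restrain mTORC1. *Nanog* was at 306.8 and 349.6 TPM in wild-type, 259.6 and 281.1 TPM in *Nprl2* KO, and 606.4 and 657.4 TPM in *Tsc2* KO. The order was *Tsc2* KO, wild-type and *Nprl2* KO, and no neighbours in it overlapped, though wild-type and *Nprl2* KO lay only 25.8 TPM apart at their nearest libraries, with means 57.9 TPM apart against 45.4 TPM for the sum of their SDs. *Nanog* rose in *Tsc2* KO to 631.9 ± 36.1 TPM (SD, n = 2) against 328.2 ± 30.3 TPM (SD, n = 2) in wild-type, which was 0.91 on the log2 scale (SE 0.08, edgeR adjusted p = 8.51e-06). In *Nprl2* KO, at 270.3 ± 15.2 TPM (SD, n = 2), its log2 fold change was -0.24 (SE 0.08) and was not called (edgeR adjusted p = 0.0906). The adjusted p of this difference lay between 0.00611 and 0.464 over 13 alternatives, and 3 of these called it, which were no low-count filter (0.00611), the replicate number as a block (0.00681) and a fit without wild-type library 1 (0.0466, log2 fold change -0.36). Between the KOs, *Nanog* was higher in *Tsc2* KO by 1.16 on the log2 scale (SE 0.08, edgeR adjusted p = 8.78e-07). The comparisons with wild-type share both wild-type libraries. Day 0 of the time course had a higher level (782.2 TPM) than wild-type GFP+ cells (328.2 TPM), but the sets were made separately and this difference was not tested.

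The targeted genes were lower in their own KO. *Nprl2* had a log2 fold change of -0.96 in *Nprl2* KO (edgeR adjusted p = 0.00888, and 0.0555 and 0.0535 without *Nprl2* KO library 1 and 2) and *Tsc2* one of -1.23 in *Tsc2* KO (adjusted p = 9.74e-07). Neural precursor markers summed to between 11.2 and 14.8 CPM in *Tsc2* KO, 30.7 to 36.4 in wild-type and 33.4 to 37.5 in *Nprl2* KO. Feeder markers summed to between 1419 and 1933 CPM in *Tsc2* KO, 1412 to 1558 in wild-type and 1411 to 1494 in *Nprl2* KO. Of these markers *Fn1* was called higher in *Tsc2* KO (log2 fold change 0.39, edgeR adjusted p = 0.00181). *Col1a1*, *Col1a2*, *Col3a1*, *Postn*, *Thy1* and *Acta2* were not called there. *Zfp42*, whose reporter defined the sort, was itself lower in *Nprl2* KO (log2 fold change -0.43, edgeR adjusted p = 0.00168) and higher in *Tsc2* KO (0.52, adjusted p = 7.79e-05). The part of each in the difference in *Nanog* was not tested.

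Of the 14 activators, *Tsc2* KO had 7 called higher and 1 called lower against wild-type, and their median change on the log2 scale was 0.47 against 0.01 for all 13725 genes tested, of which 14.9% were called higher and 14.2% lower. In *Nprl2* KO 0 were called higher and 4 lower, with a median of -0.19 against 0.00, where 2.78% of all genes were called higher and 3.66% lower. Between the KOs 8 were called higher in *Tsc2* KO and 0 lower, against 17.5% and 16.6% of all genes. Among the activators called in both KOs by edgeR, *Tbx3*, a T-box factor of the LIF network, had the largest change, 1.87 (SE 0.09) in *Tsc2* KO and -1.28 (SE 0.09) in *Nprl2* KO. The others were *Klf4* at 1.15 and -1.09, *Esrrb* at 1.03 and -0.94 and *Klf5* at 0.67 and -0.61. The call of *Klf5* in *Nprl2* KO (adjusted p = 0.0189) was lost without wild-type library 1 (log2 fold change -0.41, adjusted p = 0.167) and without either *Nprl2* KO library (adjusted p = 0.0599 and 0.141). *Prdm14* (1.33), *Nr5a2* (0.68) and *Stat3* (0.54) were called higher in *Tsc2* KO and not called in *Nprl2* KO. *Sall4*, a zinc finger partner of Nanog, was the activator called lower in *Tsc2* KO (-0.26), a call lost without wild-type library 1 or *Tsc2* KO library 2 (adjusted p = 0.0715 and 0.113), and 2 activators were called lower without *Tsc2* KO library 1. *Pou5f1* and *Sox2*, whose motifs lie side by side in the upstream region, were not called in either KO, and *Pou5f1* had 0.04 (SE 0.09) in *Nprl2* KO and -0.01 (SE 0.09) in *Tsc2* KO. Genes of chromosome 1, where *Nr5a2*, *Prdm14*, *Zfp281*, *Tfcp2l1* and *Lefty1* lie, had a median of 0.37 on the log2 scale in *Tsc2* KO. The medians of the other autosomes and of X lay between -0.11 (chromosome 12) and 0.04 (chromosome 6). Counts of genes called higher in *Tsc2* KO include genes of chromosome 1, and the part of its shift in their changes was not tested.

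**Figure D5:**
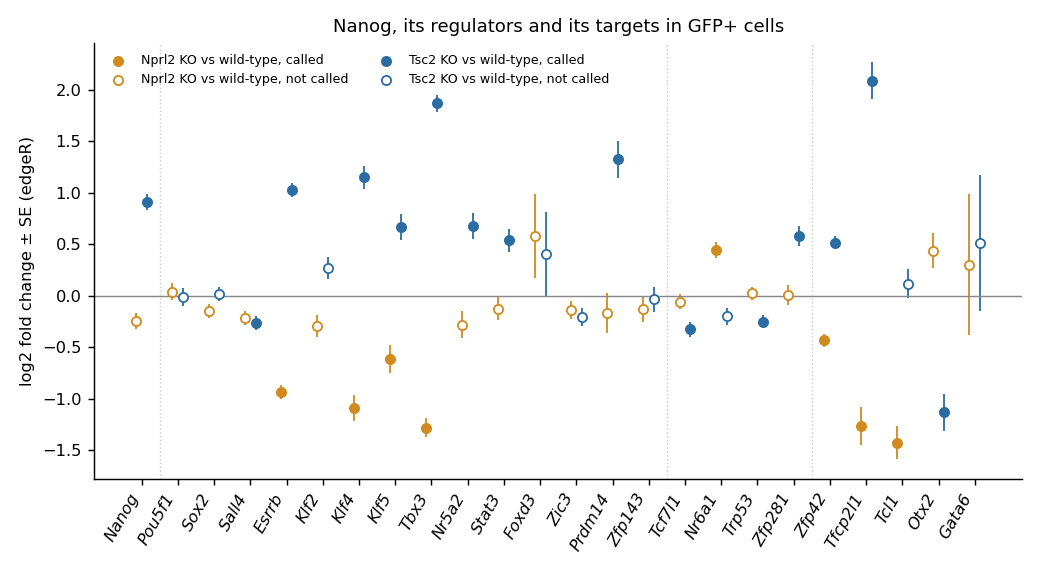
edgeR log2 fold change ± SE of *Nanog*, 14 activators, 4 repressors and 5 further genes known to respond to Nanog (groups divided by dotted lines) in *Nprl2* KO and *Tsc2* KO against the same 2 wild-type libraries of GFP+ cells. Filled points were called at an adjusted p under 0.05; *Nanog* is at -0.24 and 0.91, *Tbx3* at -1.28 and 1.87.

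Among the repressors, *Tcf7l1* (log2 fold change -0.33) and *Trp53* (-0.25) fell and *Zfp281* (0.58) rose in *Tsc2* KO, and *Nr6a1* rose in *Nprl2* KO (0.44). The call of *Trp53* was lost without wild-type library 1 or *Tsc2* KO library 2 (adjusted p = 0.0829 and 0.108), and that of *Nr6a1* without wild-type library 2 or *Nprl2* KO library 2 (adjusted p = 0.0540 and 0.0649). Of the 6 genes that Nanog is known to activate, 5 were called higher in *Tsc2* KO, against 14.9% of all genes. In *Nprl2* KO 5 were called lower, against 3.66%, and all 6 were called higher in *Tsc2* KO than in *Nprl2* KO, against 17.5%. All 6 are also on the naive list. *Tfcp2l1*, a transcription factor of the naive network, was at 2.09 and -1.27, and *Tcl1*, an Akt co-activator, at 0.12 (not called) and -1.43. The call of *Tfcp2l1* in *Nprl2* KO (adjusted p = 0.0211) was lost without either *Nprl2* KO library (adjusted p = 0.138 and 0.155). *Otx2*, which Nanog is known to repress, fell by 1.13 in *Tsc2* KO and had 0.44 in *Nprl2* KO (edgeR adjusted p = 0.195). Of 17 protein partners, 4 were called higher and 6 lower in *Tsc2* KO, against 14.9% and 14.2% of all genes. In *Nprl2* KO 0 were called higher and 3 lower, against 2.78% and 3.66%. *Mta1* fell in both, by 1.53 in *Tsc2* KO and 0.70 in *Nprl2* KO. Without wild-type library 1 or *Tsc2* KO library 2, 2 of the partners were called lower in *Tsc2* KO. Of 14 naive genes, 8 were called higher and 2 lower (*Dppa3* and *Fbxo15*) in *Tsc2* KO, and 1 higher (*Dppa3*) and 8 lower in *Nprl2* KO, with medians of 0.59 and -0.52. The 8 called lower in *Nprl2* KO became 5 without *Nprl2* KO library 2. *Dppa3* changed against most of its list, and without wild-type library 1 its call in *Nprl2* KO was lost (adjusted p = 0.0576). Of 10 formative genes, 8 were called lower in *Tsc2* KO and 1 (*Dnmt3b*, a DNA methyltransferase, 0.45) higher in *Nprl2* KO, with medians of -1.66 and 0.44. Without *Nprl2* KO library 2 or wild-type library 1, 2 of the formative genes were called higher in *Nprl2* KO.

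Of the LIF-Stat3 genes, *Stat3* rose by 0.54 and *Jak1* by 0.33 in *Tsc2* KO, *Il6st* fell there by 0.24, and *Lifr* fell by 0.68 in *Nprl2* KO. Leaving out 1 library ended the calls of *Jak1* (wild-type library 2, *Nprl2* KO library 1 or either *Tsc2* KO library, adjusted p between 0.0514 and 0.235), *Il6st* (wild-type library 2 or either *Tsc2* KO library, adjusted p between 0.0845 and 0.281) and *Lifr* (*Nprl2* KO library 2, adjusted p = 0.0512), and without *Nprl2* KO library 1 the genes of this list called lower in *Nprl2* KO were 2. *Socs3*, the gene nearest to *Nanog* in the time course, was not called in either KO. Of the Nodal and activin genes, 3 were called higher and 5 lower in *Tsc2* KO, against 14.9% and 14.2% of all genes. There the Nodal inhibitor and target *Lefty1* was lower by 2.79 and the Smad partner *Foxh1* lower by 1.00. In *Nprl2* KO 2 of them were called higher and 2 lower, against 2.78% and 3.66% of all genes, with *Nodal* higher by 0.63. Without *Tsc2* KO library 2, the counts in *Tsc2* KO were 1 higher and 3 lower. In *Nprl2* KO 1 was called higher without either *Nprl2* KO library or wild-type library 1, and 0 were called lower without *Nprl2* KO library 2 and 1 without wild-type library 1. Of 9 primitive streak genes tested, 1 was called higher and 2 lower in *Tsc2* KO and 0 were called in *Nprl2* KO by edgeR or DESeq2, where 2 were higher at an unadjusted p under 0.05 and 1 was called higher without *Nprl2* KO library 1. The 2 called lower in *Tsc2* KO became 0 without wild-type library 2 or *Tsc2* KO library 1, and 1 without *Tsc2* KO library 2. *Slc2a3*, beside *Nanog*, was at 810.3 and 931.6 CPM in wild-type, 603.4 and 642.8 CPM in *Nprl2* KO (log2 fold change -0.48, edgeR adjusted p = 0.00763) and 1279 and 1469 CPM in *Tsc2* KO (0.66, adjusted p = 2.30e-04). Its genotypes did not overlap and had the same order as those of *Nanog*. Its call in *Nprl2* KO was lost without *Nprl2* KO library 1 (adjusted p = 0.0555). *Foxj2* was called in neither KO, with log2 fold changes of 0.42 without Nprl2 and -0.04 without Tsc2. Of the tested neighbours, 2 were called higher (*Slc2a3* and *Necap1*) and 2 lower (*Gdf3* and *Dppa3*) in *Tsc2* KO, against 14.9% and 14.2% of all genes. In *Nprl2* KO 2 were called higher (*Dppa3* and *Necap1*) and 1 lower (*Slc2a3*), against 2.78% and 3.66%. *Dppa3* went against *Nanog* in both, at -2.16 in *Tsc2* KO and 1.10 in *Nprl2* KO. The call of *Necap1* in *Nprl2* KO was lost when single libraries were left out.

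By both KO log2 fold changes together, the genes nearest to *Nanog* among 13725 were *Lrriq4* (-0.27 in *Nprl2* KO and 0.88 in *Tsc2* KO, root mean square difference 0.0257), *Adra2b* (-0.21 and 0.91), *Usp40* (-0.27 and 0.88), *Hydin* (-0.21 and 0.90) and *Camk1* (-0.21 and 0.90). *Isoc2a*, *Mgat3*, *Tle5*, *Npc2* and *Tinagl1* completed the 10, at differences up to 0.0383. None of these 10 was among the 10 nearest in the time course, as 0 genes were shared.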

How the data were processed

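The authors deposited, per RefSeq transcript and library, kallisto's estimated counts and TPM, neither normalized between libraries. The submitters' processing notes name kallisto 0.42.1, DESeq2 and mm10. The *Nanog* row of a deposited table of TPM per gene equalled its transcripts' TPM summed, to rounding. The authors' DESeq2 tables hold their own fold changes and p values of each KO and were not used. GFP+ libraries were made with a stranded mRNA kit, and the preparation of the time-course libraries is not given in the sources used here beyond a standard Illumina protocol.

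Transcripts were assigned to genes with the RefSeq table of GRCm38.p6 (33709 of 34079) or GENCODE M21 (196), and 174 were left out. Estimated counts were summed per gene, rounded, and fitted with edgeR 4.0.16 in R 4.3.3 (TMM, its low-count filter, robust quasi-likelihood, Benjamini-Hochberg adjustment over all genes tested, threshold 0.05), with the 12 time-course and the 6 GFP+ libraries in separate fits. The edgeR steps were tested on simulated data. The SE is the log2 fold change divided by the root of the F statistic. No 2 libraries were identical or differed by sampling noise alone.

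*Nanog* and all gene lists were chosen with earlier results of these data known. Values are printed for called list members, up to 6 by size of change, for members whose role is given, and for the 10 genes most like *Nanog*. Lists cover activators, repressors, partners and targets of Nanog, LIF-Stat3, Nodal and activin, naive, formative and primitive streak genes, the 6 protein-coding genes on each side, and markers of mESCs, feeders, primitive endoderm, trophectoderm and neural precursors. Several genes are on more than 1 list, so counts of different lists are not independent. The activator and naive lists share *Esrrb*, *Klf2*, *Klf4*, *Klf5*, *Tbx3*, *Nr5a2* and *Prdm14*. *Pou5f1*, *Sox2*, *Sall4* and *Esrrb* are both activators and partners. Alternatives were DESeq2 1.42.0, upper-quartile normalization, no low-count filter, the replicate number as a block, limma 3.58.1 on log2(TPM + 1), the *Nanog* transcript with the most counts over all libraries alone (or, chosen after seeing the data, over the time course), the ratio of mean TPM, each pair of genotypes alone and leaving out each library (for the counts of lists, chosen after seeing the data). With 1 library left in a genotype, its spread was taken to be that of the others.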

Additional observations from a re-analysis of the deposited data

Results flagged for a closer look

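*Nanog* was called higher in *Tsc2* KO and was lower, but not called, in *Nprl2* KO, and both were compared with the same wild-type libraries. Both *Tsc2* KO libraries were above and both *Nprl2* KO libraries below the 2 wild-type libraries, and the direct test of the difference put *Tsc2* KO above *Nprl2* KO by 1.16 on the log2 scale (SE 0.08, edgeR adjusted p = 8.78e-07), called under all 13 alternatives (adjusted p between 4.82e-61 and 4.46e-05). The change in *Nprl2* KO alone was not called (edgeR adjusted p = 0.0906).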

How the results depend on the processing

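*Nanog* kept its direction in all 107 comparisons under alternatives (39 between genotypes and 68 between days), and every call in *Tsc2* KO was kept. Its change in *Nprl2* KO (-0.24, edgeR adjusted p = 0.0906) was called without the low-count filter (-0.25, adjusted p = 0.00611), with the replicate block given below and, leaving out single libraries, ranged from -0.36 (called, without wild-type library 1) to -0.14. The fall at day 1 was -5.50 from NM_028016.3 alone, which had the most counts over all 18 libraries, and -4.80 from NM_001289831.1 alone, which had the most in the time course and was added after seeing the data. The number of genes called in *Nprl2* KO, 883, was 1667 without the filter and between 339 and 783 without single libraries. That in *Tsc2* KO against wild-type, 3996, lay between 2225 and 3974, that between the KOs, 4692, between 2974 and 4791, and that from day 2 to day 3, 4525, between 2969 and 5055. Under the alternatives 91 such counts stayed within 1.5 times the reported one and 10 did not, and for the lists 435 did and 27 did not. Replicate numbers are shared across groups. The deviations of same-numbered libraries from their group means correlated by 0.085 to 0.164 in GFP+ cells, all positive, and by -0.113 to 0.133 in the time course. The main fit did not take the number as a pairing, and the call of *Nanog* in *Nprl2* KO depends on this choice. With the replicate number as a block, *Nanog* in *Nprl2* KO was at -0.24 (adjusted p = 0.00681) and 2072 genes were called there. The causes of these shifts were not tested. *Nanog* had at least 305 counts in every library, far above the 3 counts that a count of 0 allows.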
